A study of Homo sapiens with 12 samples.

Results

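The 58 genes described here lie one after another on the long arm of chromosome 1 (1q), between INTS7 at the centromeric end and CHML at the telomeric end. They are neighbouring genes listed by name, and the list was selected on the log2 levels of these same 12 arrays, with earlier results on the differences between groups known, so that each of their values below is a description. For each gene the probe set with a single gene symbol and the highest mean over the 12 arrays was taken. All 58 had such a probe set, out of 18417 genes tested, and the stretch held 103 further measured genes that were not among the 58. The term "the 58 genes" below means this list, and "the stretch" means the 161 measured genes between and including INTS7 and CHML.

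Transcript levels were measured in A172, an adherent line derived from a human glioblastoma, on Affymetrix GeneChip arrays whose probes lie along the whole transcript. The 12 arrays formed 4 groups of 3 cultures, each harvested after 4 days. Clone 7 and clone 8 were 2 separate stable lines carrying the pcDNA3.1 vector with hHSS1 (now EMC10) fused to a His tag, the mock line carried the same vector without insert, and wild-type cells were not transfected. By the methods the stable clones were kept in G-418. The purpose was to find which transcripts differ when hHSS1 is made in excess. Each clone and the mock line is 1 line, so that a p-value measures the spread between cultures of that line and not between independently made lines, and a difference between a clone and mock cannot be told apart from a difference between lines.

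Genes that are neighbours on a chromosome arm need not share a pathway. In tumour cells, whose chromosome number is often abnormal and can differ between cells of one culture, transcript levels of many genes on an arm are known to follow how many copies of that arm a cell carries. Copies of DNA were not measured here. The 58 genes encode proteins of many kinds, among them the DNA repair enzyme PARP1, the nuclear envelope protein LBR, the phosphatase DUSP10 and the stress-induced transcription factor ATF3. In bulk RNA, fewer cells with a transcript and less of it per cell cannot be told apart.

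Promoters are shown for 3 of the 7 genes that were called in each clone against mock, TMEM63A and PARP1 with the lowest differences among them and DUSP10, the only one that rose. The other 4 were PSEN2, ABCB10, FAM89A and GNPAT. They run from 250 bases before to 50 bases after an annotated start, in the RefSeq annotation of GRCh38.p14. TMEM63A lies on the minus strand at chr1:225882331-225882630, PARP1 on the minus strand at chr1:226408044-226408343, and the DUSP10 window, the first of its 2 listed, on the minus strand at chr1:221742040-221742339. Capitals mark the letters of the CCAAT box (CCAAT) and the GC box (GGGCGG) on either strand, which did not overlap each other, and no window held TGACGTCA, the cyclic AMP response element.
TMEM63A: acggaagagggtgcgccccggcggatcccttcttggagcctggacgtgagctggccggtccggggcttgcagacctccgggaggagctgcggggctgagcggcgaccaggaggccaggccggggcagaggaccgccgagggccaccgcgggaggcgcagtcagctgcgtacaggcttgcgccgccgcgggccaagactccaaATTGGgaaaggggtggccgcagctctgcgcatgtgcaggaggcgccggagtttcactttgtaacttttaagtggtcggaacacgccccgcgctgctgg
PARP1: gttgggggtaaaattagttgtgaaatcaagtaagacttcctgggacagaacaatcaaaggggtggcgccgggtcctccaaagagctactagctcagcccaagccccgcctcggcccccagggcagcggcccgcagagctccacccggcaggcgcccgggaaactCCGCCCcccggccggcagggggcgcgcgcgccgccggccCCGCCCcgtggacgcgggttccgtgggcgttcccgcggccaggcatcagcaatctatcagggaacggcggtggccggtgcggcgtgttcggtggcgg
DUSP10: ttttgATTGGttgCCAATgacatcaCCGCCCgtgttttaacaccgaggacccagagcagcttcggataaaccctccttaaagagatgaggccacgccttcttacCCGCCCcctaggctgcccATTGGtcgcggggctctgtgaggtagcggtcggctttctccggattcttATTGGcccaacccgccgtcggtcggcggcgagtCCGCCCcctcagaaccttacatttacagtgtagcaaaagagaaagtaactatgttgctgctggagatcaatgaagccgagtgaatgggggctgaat
The TMEM63A window held 1 CCAAT box and 0 GC boxes, the PARP1 window 0 and 2, and the DUSP10 window 4 and 3. Over the 72 windows found for 52 of the 58 genes, the CCAAT letters were in 38.9% and the GC box in 48.6%, against 34.6% and 45% of all 35116 windows. The cyclic AMP response element was in 1.39% of the windows of the 58 genes and in 1.85% of all windows. The median GC content was 62.7% for the 58 genes and 58.7% for all windows.

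The labels were checked first. EMC10 had log2 levels of 11.57, 11.72 and 12.30 in clone 7 and 12.13, 12.18 and 11.75 in clone 8, against 9.20, 9.33 and 9.51 in mock and 11.13, 10.43 and 10.69 in wild-type cells. It was higher in each clone than in mock, by 2.52 ± 0.20 and 2.67 ± 0.20 on the log2 scale (SE), and the mock line lay below the untransfected cells. The array medians ran from 8.60 to 8.67. The glial markers GFAP and S100B were dim (8.71 and 6.34 over the 12 arrays, against a median gene at 9.21), while VIM and CD44 were bright (13.60 and 13.43), and 4 of 10 astroglial markers lay above the median gene. No leukocyte or endothelial marker did (0 of 4 and 0 of 4). Of the epithelial markers 2 of 5 did, KRT8 and KRT18 (13.55 and 13.67). So did 1 of 5 neuronal markers, SYT1 (10.64), and 3 of 5 fibroblast markers. The clone 8 cultures differed most among themselves, with a median SD over the 58 genes of 0.15, against 0.09 in clone 7, 0.04 in mock and 0.07 in wild-type cells.

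Most of the 58 genes had less transcript in either clone than in mock, each by a small amount. In clone 7 the difference from mock was below 0 for 51 of 58 genes, with a median of -0.19 on the log2 scale (a fold of 1.14) and an interquartile range from -0.29 to -0.11. In clone 8 it was below 0 for 48 of 58, with a median of -0.23 (a fold of 1.17) and an interquartile range from -0.35 to -0.13. Over all genes tested the medians were -0.01 and 0.02, and 52.9% and 44.6% of genes lay below 0. Both comparisons use the same 3 mock arrays, so that one is no repeat of the other.

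At a limma adjusted p under 0.05 over all genes, 7 of the 58 genes fell in clone 7 against mock, where 1.32% of all genes did, and 1 rose, where 1.82% did. In clone 8 against mock 17 fell (3.12% of all genes), among them AIDA and SRP9, whose probe sets are uncertain (below), and 2 rose (1.97%). The 1.5-fold limit was passed as well by 0 of these genes in clone 7 (0.233% of all genes lower and 0.467% higher) and by 1 in clone 8, DUSP10, which rose (0.456% of all genes lower and 0.304% higher). The 3 arrays of clone 7 all lay below the 3 of mock for 31 genes (13.3% of all genes) and all above for 3 (12.2%), and for clone 8 the counts were 36 (12.7%) and 2 (10.4%). Since the stretch was picked with such values known, nothing is read from these counts.

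The counts of calls depended on single arrays. Without clone 7 replicate 3 the genes that fell in clone 7 numbered 15, without clone 7 replicate 2 they numbered 2, and without clone 7 replicate 1 or any 1 mock array they numbered 1. In clone 8 the count was 30 without clone 8 replicate 2, 11 without replicate 3 and 7 without replicate 1, and it was 2, 1 and 1 without mock replicates 1, 2 and 3. The median lay between -0.24 and -0.17 for clone 7 and between -0.30 and -0.19 for clone 8 over the same fits. Of the 8 calls in clone 7 against mock 1 held on leaving out any 1 array, and of the 19 in clone 8 against mock 2 did. The share of all genes called was not counted in these fits, nor in later fits with 1 array left out. Whether the counts over all genes moved as much is therefore not known.

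**Figure D1:**
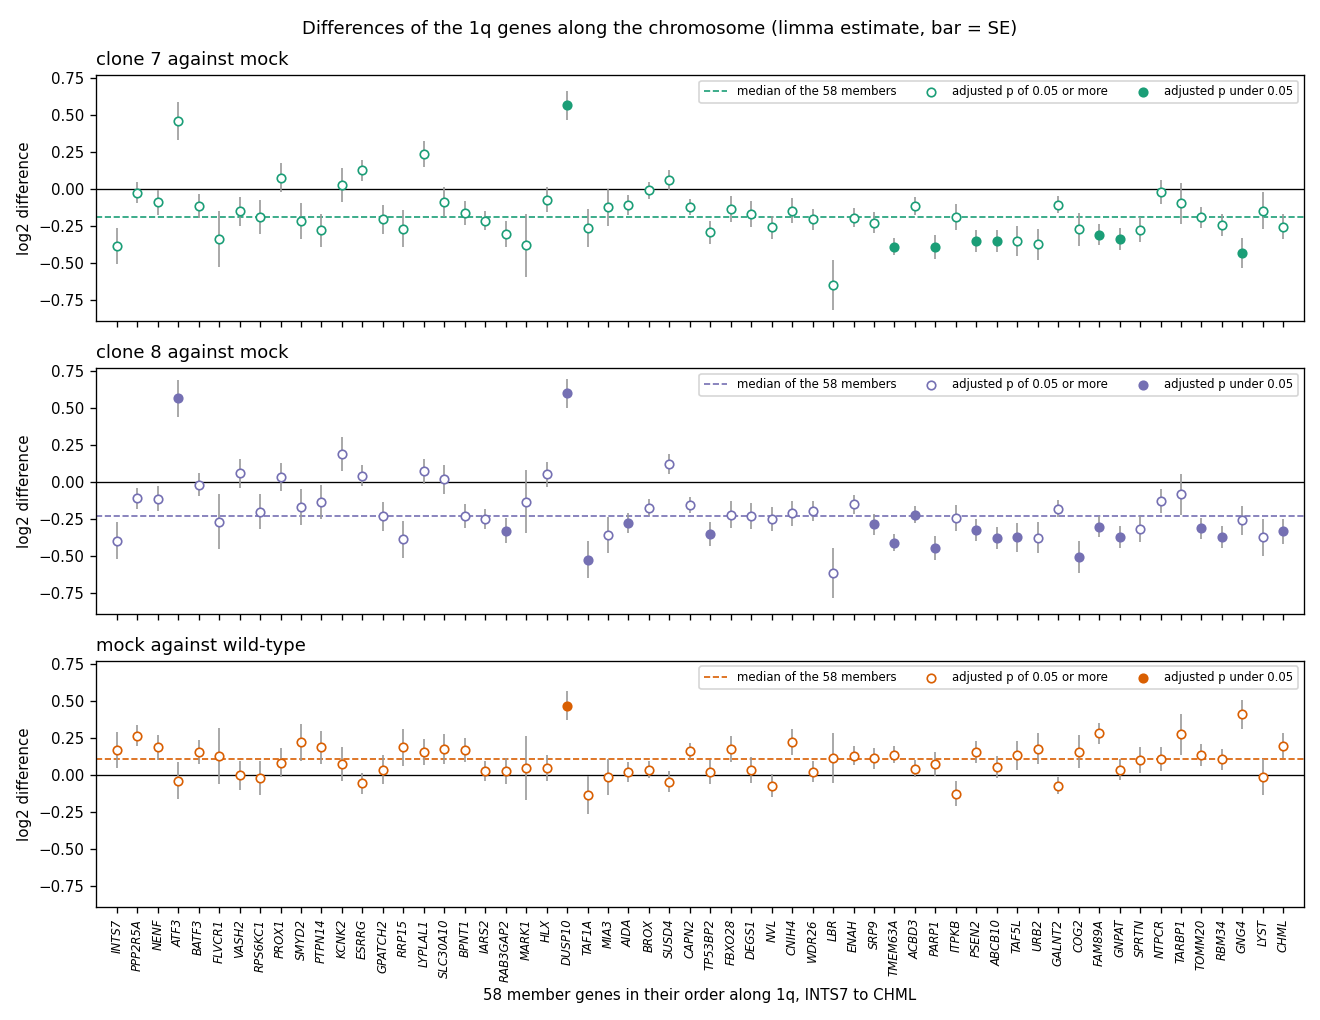
Log2 difference of each of the 58 genes (points, bars are SE) in their order along 1q, for clone 7 against mock, clone 8 against mock and mock against wild-type, with filled points at an adjusted p under 0.05 and a dashed line at the median. In each clone all 29 points from TP53BP2 to CHML lie below 0, DUSP10 and ATF3 lie above it, and in mock against wild-type most points lie slightly above 0.

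The lower levels were more regular in the telomeric part. From INTS7 to CAPN2 (29 genes) the difference from mock was below 0 for 22 genes in clone 7 and for 19 in clone 8, with medians of -0.12 and -0.13. From TP53BP2 to CHML (29 genes) it was below 0 for 29 of 29 in each clone, with medians of -0.25 and -0.31. All 7 genes that fell in clone 7 and 14 of the 17 that fell in clone 8 were in this second part, and the remaining 3 in clone 8 were RAB3GAP2, TAF1A and AIDA. The 2 genes that rose, DUSP10 and ATF3, were in the first. This division was made at the middle of the list and was not tested. The genes whose mean level did not exceed the median gene were all in the first part, except ITPKB. Level and position were therefore not separated by this division.

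The 58 genes included dim ones. Of them 47 had a mean level above the median gene and 11 did not, 5 of which were below the lower quartile of gene means (7.80). The 47 brighter genes had medians of -0.21 in clone 7 and -0.26 in clone 8 against mock, relative to -0.02 and -0.05 for all 9208 genes above the median level. Among the 11 dim genes, such as ESRRG, PROX1 and KCNK2, which encode a nuclear receptor, a homeobox factor and a potassium channel, the medians were -0.09 and 0.03. KCNK2 had the highest difference of the dim genes after ATF3 in clone 8, 0.19 ± 0.11 against mock (adjusted p = 0.354) and 0.27 ± 0.11 against wild-type (adjusted p = 0.159). The other genes of the stretch divided in the same manner, with medians of -0.16 and -0.21 for the 52 brighter ones and of -0.02 and 0.04 for the 51 dim ones. The medians of sets and blocks along the chromosome that are given next leave the dim genes out. The division of the list at its middle, above, was made on all 58 genes.

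**Figure D2:**
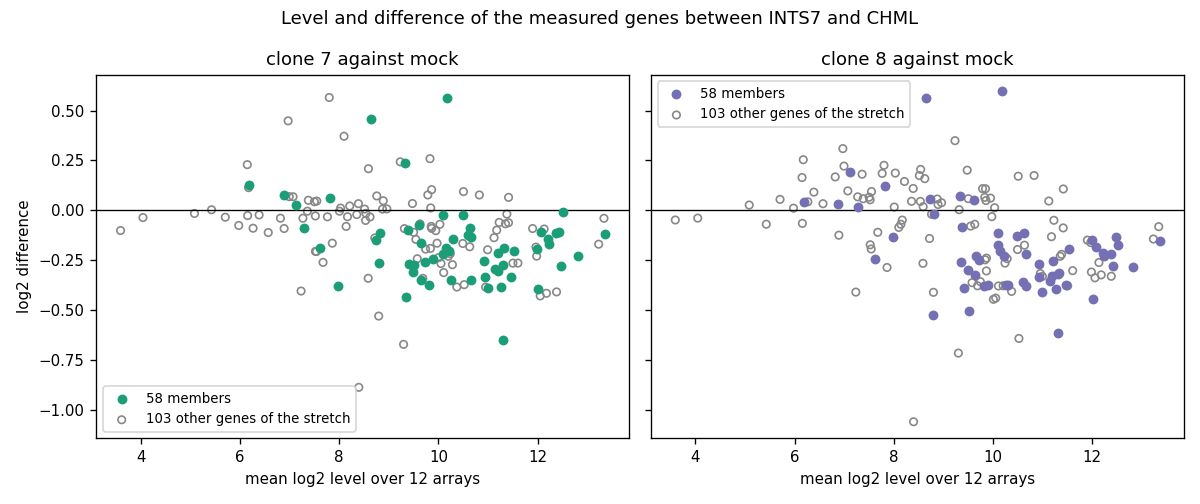
Mean log2 level over the 12 arrays (horizontal axis) and log2 difference from mock (vertical axis) for the 58 genes (filled) and the 103 other measured genes of the stretch (open), clone 7 on the left and clone 8 on the right. Among genes with levels above about the median gene (9.21) most points lie below 0, and among dimmer genes they lie on both sides of 0.

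The lower levels were not limited to the stretch. Among genes above the median level, the 12 such genes of the 25 just before INTS7 had medians of -0.12 in clone 7 and -0.13 in clone 8 against mock, and the 11 of the 25 just after CHML had -0.18 and -0.18. The rest of 1q (305 genes) had -0.13 and -0.11, whereas the short arm, 1p (474 genes), had -0.02 and -0.06. In consecutive blocks of 25 such genes, all 17 blocks of 1q had a median below 0 in each clone. The lowest block of 1q for clone 7 reached -0.23 (LEFTY1 to URB2) and for clone 8 -0.30 (GALNT2 to LYST), and both lie within the stretch. On 1p the 19 blocks ran from -0.09 to 0.01 in clone 7 and from -0.17 to 0.05 in clone 8.

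The 4 blocks that hold 6 or more of the 58 genes, 46 in all, ran from -0.23 to -0.17 in clone 7 and from -0.30 to -0.17 in clone 8. Over all chromosomes, 12 of 356 blocks (3.37%) were at or below -0.17, the highest of these 4, in clone 7, and 5 of the 12 were on chromosome 1. In clone 8, 36 of 356 blocks (10.1%) were at or below the corresponding value, 6 of them on chromosome 1. The lowest block of all lay on chromosome 4 in clone 7 (-0.28) and on chromosome 10 in clone 8 (-0.31). Blocks elsewhere therefore had medians as low as those of the stretch. Against wild-type cells these 4 blocks ran from -0.17 to -0.056 in clone 7 and from -0.18 to -0.043 in clone 8. At or below the highest of them were 61 of 356 blocks (17.1%) in clone 7 and 169 (47.5%) in clone 8. Among brighter genes, the 47 of the 58 had medians against wild-type of -0.12 and -0.18. The rest of 1q had -0.098 and -0.084.

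**Figure D3:**
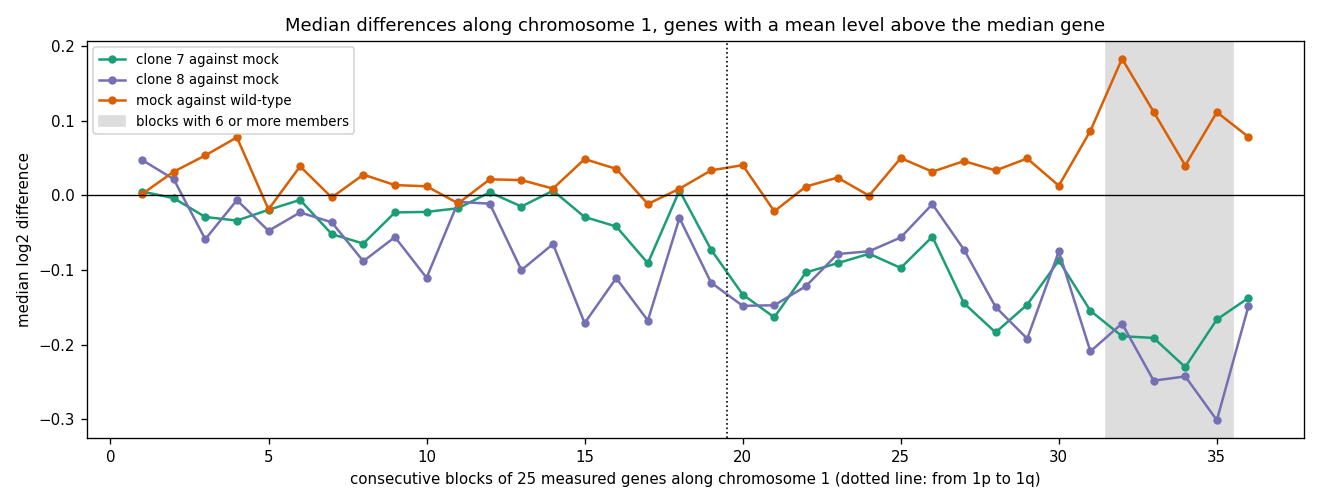
Median log2 difference (vertical axis) of consecutive blocks of 25 genes above the median level along chromosome 1 (horizontal axis, 1p to 1q), for clone 7 against mock, clone 8 against mock and mock against wild-type, with the 4 blocks that hold 6 or more of the 58 genes shaded. The clone lines lie below 0 over the whole of 1q, lowest at -0.23 and -0.30 in the shaded blocks, where the line of mock against wild-type is above 0.

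The genes on either side of each edge are given in turn. INTS7, a subunit of the Integrator complex that processes small nuclear RNAs, differed from mock by -0.38 ± 0.12 in clone 7 and -0.40 ± 0.12 in clone 8 (SE, adjusted p = 0.136 and 0.09). It passed the threshold without clone 7 replicate 3 (adjusted p = 0.0295) and without clone 8 replicate 2 (0.0138). LPGAT1, the next measured gene outside, had -0.31 ± 0.13 and -0.26 ± 0.13 (adjusted p = 0.261 and 0.262). NEK2, a mitotic kinase and the next gene out from LPGAT1, fell in each clone, with -0.70 ± 0.13 in clone 7 and -0.65 ± 0.13 in clone 8 (adjusted p = 0.0163 and 0.0188). At the other edge CHML, a Rab escort protein, had -0.25 ± 0.08 in clone 7 and -0.33 ± 0.08 in clone 8, where it fell (adjusted p = 0.0408). This call held only without clone 8 replicate 2 and was lost on leaving out any other single array of clone 8 or mock, with an adjusted p of up to 0.139. WDR64, next outside, was dim (mean levels of 5.52 in clone 7, 5.49 in clone 8, 5.52 in mock and 5.42 in wild-type cells), and its differences from mock were 0.00 and -0.03. EXO1, a DNA exonuclease and the next gene out from WDR64, had -0.53 ± 0.15 in clone 7 and -0.60 ± 0.15 in clone 8, where it fell (adjusted p = 0.0733 and 0.0367). NEK2 and EXO1 were named after their values were seen.

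Array by array, the mock cultures stood apart. The median deviation of the 58 genes from their own means over the 12 arrays was -0.11, -0.12 and 0.01 in clone 7 and -0.11, 0.01 and -0.18 in clone 8, against 0.15, 0.14 and 0.14 in mock and 0.01, 0.02 and 0.10 in wild-type cells. No clone array reached any mock array, while clone 7 replicate 3 and clone 8 replicate 2 were within the range of the wild-type arrays. The same 2 clone arrays were the highest of their groups for the 305 brighter genes of the rest of 1q, where the mock range was 0.04 to 0.08 and the clone arrays reached 0.03. They were also the highest of their groups for the brighter genes of 1p (0.0245 and 0.0166). The same held over all brighter genes tested (0.015 and 0.0128), so this order was not particular to 1q. What sets these 2 cultures apart was not tested.

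**Figure D4:**
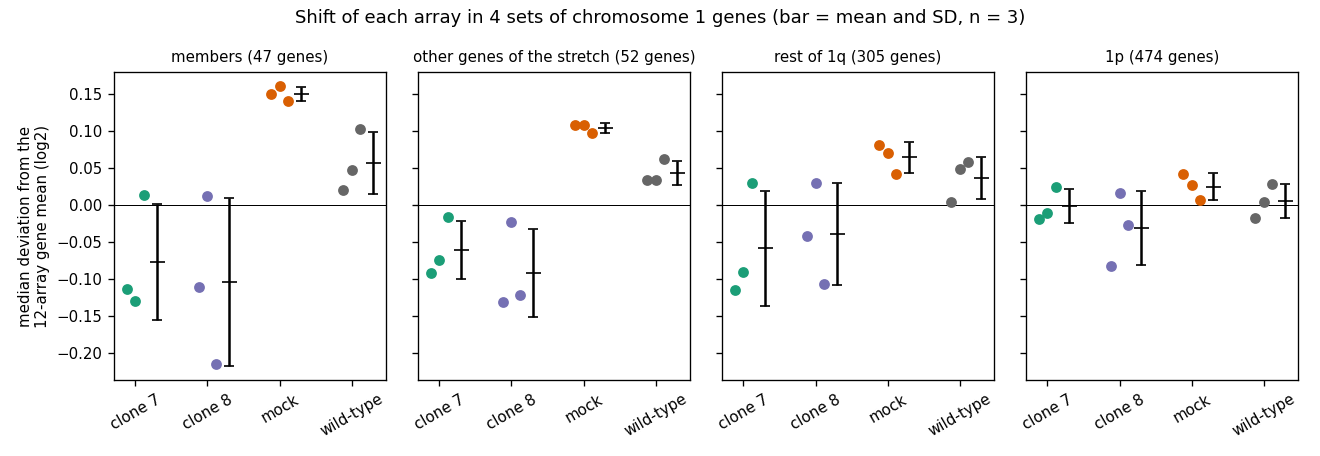
Median deviation of each array from the gene means over 12 arrays (log2, vertical axis; bars are mean and SD, n = 3) in brighter genes of 4 sets of chromosome 1, for clone 7, clone 8, mock and wild-type. For the 47 brighter of the 58 genes the 3 mock arrays lie between 0.14 and 0.16, above every other array, and on 1p the groups overlap.

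Against wild-type cells the difference was smaller, and mock itself was higher than wild-type. In mock, 47 of the 58 genes lay above wild-type, with a median of 0.11 on the log2 scale (all genes 0.02). For 28 genes the 3 mock arrays all lay above the 3 wild-type arrays (15.6% of all genes), 1 gene rose at an adjusted p under 0.05 (1% of all genes), DUSP10, and 0 fell (1.24%), with 0 lower at an unadjusted p under 0.05 as well. Clone 7 lay below wild-type for 39 genes with a median of -0.11 (all genes 0.01), 5 genes fell (2.16% of all genes) and 2 rose (2.82%). Clone 8 lay below wild-type for 40 genes with a median of -0.17 (all genes 0.03), 12 fell (5.13%) and 2 rose (3.69%). From INTS7 to CAPN2, 14 of 29 genes lay below wild-type in each clone, with medians of 2.67e-05 and 0.0044. From TP53BP2 to CHML, 25 of 29 did in clone 7 and 26 of 29 in clone 8, with medians of -0.16 and -0.20. The lower levels against wild-type were thus mostly in the second part of the list. Both limits were passed in clone 7 by 1 gene that rose (0.907% of all genes) and 0 that fell (0.434%), and in clone 8 by 1 that rose (0.766%) and 1 that fell (0.896%), named below. Leaving out 1 array gave 0 to 7 falls for clone 7, with 0 on leaving out clone 7 replicate 1 or 2 or wild-type replicate 2 or 3 and 2 without wild-type replicate 1. For clone 8 it gave 1 to 24, with 24 without clone 8 replicate 2, 5 without clone 8 replicate 1 and 1 without wild-type replicate 2 or 3. The median ran from -0.13 to -0.083 for clone 7 and from -0.22 to -0.086 for clone 8, where the smallest value came without clone 8 replicate 3. The 5 fibroblast markers, 3 of them above the median gene, averaged 9.37 in clone 7, 9.25 in clone 8 and 9.49 in mock, against 9.85 in wild-type cells. Among them COL1A2 had 11.45 in clone 7, 10.76 in clone 8 and 11.68 in mock, against 12.72 in wild-type cells, while PDGFRB had 11.69 in mock and 11.68 in wild-type cells. Their part in the comparisons with wild-type was not tested.

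The 2 clones were not distinguished. In clone 8 against clone 7 the median over the 58 genes was -0.03 (all genes 0.01), and limma called 0 of them and 0% of all genes, in either direction and with or without the fold limit. At an unadjusted p under 0.05, 2 of the 58 were lower and 0 higher, where 7.21% of all genes passed in either direction. The lowest differences were those of TAF1A (-0.26 ± 0.13), MIA3 (-0.24 ± 0.12) and COG2 (-0.23 ± 0.11), and the highest those of MARK1 (0.25 ± 0.21), VASH2 (0.21 ± 0.10) and GNG4 (0.17 ± 0.10). MIA3 carries large cargo such as collagen out of the endoplasmic reticulum, MARK1 is a microtubule-affinity kinase, and VASH2 belongs to the vasohibins, which remove tyrosine from tubulin.

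Among the membrane transporters and channels (5 genes), 2 fell in each clone against mock, TMEM63A and the mitochondrial transporter ABCB10. Of all genes 1.32% fell in clone 7 and 3.12% in clone 8, and the medians of the group were -0.33 and -0.27. TMEM63A, a mechanically gated ion channel, had log2 levels of 10.80, 10.87 and 10.83 in clone 7 and 10.80, 10.87 and 10.77 in clone 8, against 11.25, 11.25 and 11.18 in mock and 11.04, 11.14 and 11.09 in wild-type cells. The arrays of both clones lay below all control arrays, and the cultures of each group lay close together. TMEM63A fell by 0.39 ± 0.06 in clone 7 (limma adjusted p = 0.00327) and by 0.41 ± 0.06 in clone 8 (adjusted p = 0.00226), and both calls held on leaving out any 1 array of the contrast. It was the only gene that fell against mock of which this was true. Against wild-type cells it fell as well, by 0.25 ± 0.06 in clone 7 (adjusted p = 0.0226) and 0.28 ± 0.06 in clone 8 (adjusted p = 0.0115), and these calls held in 2 of 6 and 4 of 6 such fits. ABCB10 differed from mock by -0.35 ± 0.08 in clone 7 and -0.38 ± 0.08 in clone 8, and its calls held in 1 of 6 and 3 of 6 fits.

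The genes of DNA damage and nuclear structure (4 genes: PARP1, SPRTN, LBR and TP53BP2) had the lowest group medians, -0.34 in clone 7 and -0.40 in clone 8 against mock. For each of the 4 the arrays of either clone lay below those of mock (13.3% of all genes in clone 7 and 12.7% in clone 8). All 4 were above the median gene and lie between TP53BP2 and CHML, where this held for 24 of 29 genes in each clone. It was therefore not particular to this group. Of the 4, 1 fell in clone 7 (1.32% of all genes) and 2 fell in clone 8 (3.12%). PARP1, which marks DNA breaks with poly(ADP-ribose), had levels of 11.81, 11.77 and 11.97 in clone 7 and 11.82, 11.92 and 11.65 in clone 8, against 12.21, 12.25 and 12.27 in mock and 12.09, 12.23 and 12.19 in wild-type cells. All clone arrays were below all control arrays. PARP1 fell by 0.39 ± 0.08 in clone 7 (adjusted p = 0.0215) and by 0.45 ± 0.08 in clone 8 (adjusted p = 0.00995), and by 0.32 and 0.37 against wild-type cells (adjusted p = 0.0411 and 0.0146). The call in clone 7 against mock held only without clone 7 replicate 3 and was lost without any other single array (highest adjusted p = 0.107), and that in clone 8 held in 4 of 6 fits. Against wild-type the call held in 1 of 6 fits for clone 7 (adjusted p up to 0.169) and in 4 of 6 for clone 8 (up to 0.0705).

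LBR, a receptor of the inner nuclear membrane for lamin B and a sterol reductase, had the lowest difference of the 58 genes in each clone against mock. Its levels were 10.81, 10.84 and 11.36 in clone 7 and 11.12, 11.37 and 10.63 in clone 8, against 11.67, 11.67 and 11.61 in mock and 11.53, 11.48 and 11.61 in wild-type cells. All clone arrays lay below all control arrays, but the cultures within each clone spread widely, with clone 7 replicate 3 and clone 8 replicate 2 nearest the controls. The difference from mock was -0.65 ± 0.17 in clone 7 (adjusted p = 0.0604) and -0.61 ± 0.17 in clone 8 (adjusted p = 0.0583), and neither passed the threshold. Without clone 7 replicate 3 it was -0.82 (adjusted p = 0.0119), and without clone 8 replicate 2 it was -0.78 (adjusted p = 0.0129). Without clone 8 replicate 3 it was -0.41.

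Of the transcription factors and chromatin proteins (8 genes), 0 changed in clone 7 against mock, and in clone 8 2 fell (TAF1A and TAF5L) and 1 rose (ATF3). The shares of all genes that fell and rose were 1.32% and 1.82% in clone 7 and 3.12% and 1.97% in clone 8. TAF1A, a subunit of the factor that starts ribosomal RNA transcription, had levels of 8.66, 8.68 and 8.76 in clone 7 and 8.14, 8.75 and 8.42 in clone 8, against 8.97, 8.91 and 9.002 in mock and 8.99, 9.02 and 9.29 in wild-type cells. Its clone and control arrays did not overlap, and clone 8 varied by more than clone 7. The difference from mock was -0.26 ± 0.13 in clone 7 (adjusted p = 0.368) and -0.52 ± 0.13 in clone 8 (adjusted p = 0.036), where the call held only without clone 8 replicate 2 (adjusted p = 0.00299). Against wild-type cells TAF1A fell in clone 8 by 0.66 ± 0.13 (a fold of 1.58, adjusted p = 0.00784), past both limits, as did 0.896% of all genes. The adjusted p stayed under 0.05 on leaving out any 1 array (highest 0.0457), but the difference was below the 1.5-fold limit without clone 8 replicate 1 (-0.51) or wild-type replicate 3 (-0.57).

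ATF3, a factor induced by many stresses, went the other way. Its levels were 8.71, 8.75 and 9.06 in clone 7 and 9.19, 8.97 and 8.68 in clone 8, against 8.51, 8.29 and 8.35 in mock and 8.33, 8.45 and 8.49 in wild-type cells. All clone arrays lay above all control arrays. The difference from mock was 0.46 ± 0.13 in clone 7 (adjusted p = 0.0757) and 0.56 ± 0.13 in clone 8 (adjusted p = 0.0259), and against wild-type cells it was 0.42 ± 0.13 (adjusted p = 0.0859) and 0.52 ± 0.13 (adjusted p = 0.0242). The call in clone 8 against mock was lost without clone 8 replicate 1 or any 1 mock array (adjusted p up to 0.122), and that against wild-type without clone 8 replicate 1 or any 1 wild-type array (adjusted p up to 0.0844).

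Among the kinases, phosphatases and signalling proteins (10 genes), 1 fell and 1 rose in each clone against mock, and 9 of 10 differences were below 0 in each. The gene that fell was GNG4 in clone 7 and AIDA, whose probe set is uncertain (below), in clone 8. In clone 7 1.32% of all genes fell and 1.82% rose, and in clone 8 3.12% fell and 1.97% rose. The gene that rose was DUSP10, a phosphatase that acts on the stress kinases p38 and JNK. DUSP10 had levels of 10.56, 10.50 and 10.66 in clone 7 and 10.39, 10.74 and 10.67 in clone 8, against 10.08, 9.96 and 9.98 in mock and 9.38, 9.60 and 9.65 in wild-type cells. The clone arrays were all highest, the mock arrays all between and the wild-type arrays all lowest. It rose by 0.56 ± 0.10 in clone 7 against mock (a fold of 1.48, adjusted p = 0.00861) and by 0.60 ± 0.10 in clone 8 (a fold of 1.51, adjusted p = 0.0059). Against wild-type cells it rose by 1.03 ± 0.10 in clone 7 (a fold of 2.04, adjusted p = 8.64e-05) and 1.06 ± 0.10 in clone 8 (a fold of 2.09, adjusted p = 7.44e-05), past both limits, as did 0.907% and 0.766% of all genes. It also rose by 0.46 ± 0.10 in mock against wild-type (adjusted p = 0.0263). The rises over wild-type in both clones and over mock in clone 8 kept an adjusted p under 0.05 on leaving out any 1 array, and the fold over mock in clone 8 was below 1.5 without mock replicate 2 or 3 or clone 8 replicate 2 or 3 (lowest log2 difference 0.53). The clone 7 call against mock did not hold when mock replicate 2 was left out (adjusted p = 0.0549), and the rise of mock over wild-type was lost without any 1 array of either (adjusted p = 0.0529 to 0.135).

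GNG4, a gamma subunit of G proteins, fell in clone 7 against mock and was close to wild-type levels there. Its levels were 9.12, 9.01 and 9.44 in clone 7 and 9.45, 9.39 and 9.25 in clone 8, against 9.64, 9.70 and 9.54 in mock and 9.20, 9.25 and 9.20 in wild-type cells. The mock arrays were above all others, and the clone and wild-type arrays overlapped. It fell by 0.43 ± 0.10 in clone 7 against mock (adjusted p = 0.0356), a call that held only without clone 7 replicate 3 (adjusted p = 0.00357), and the difference was -0.26 ± 0.10 in clone 8 (adjusted p = 0.155). Mock differed from wild-type by 0.41 ± 0.10 (adjusted p = 0.0556), and against wild-type cells the differences were -0.02 ± 0.10 in clone 7 and 0.15 ± 0.10 in clone 8. FAM89A, whose role is not well known, was likewise highest in mock, with -0.31 ± 0.07 in clone 7 and -0.30 ± 0.07 in clone 8 against mock, 0.28 ± 0.07 in mock against wild-type, and -0.03 and -0.02 in the clones against wild-type. In the kinase and phosphatase group, the inositol trisphosphate kinase ITPKB had the lowest difference of mock from wild-type (-0.13 ± 0.09), next to TAF1A (-0.14 ± 0.13).

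**Figure D5:**
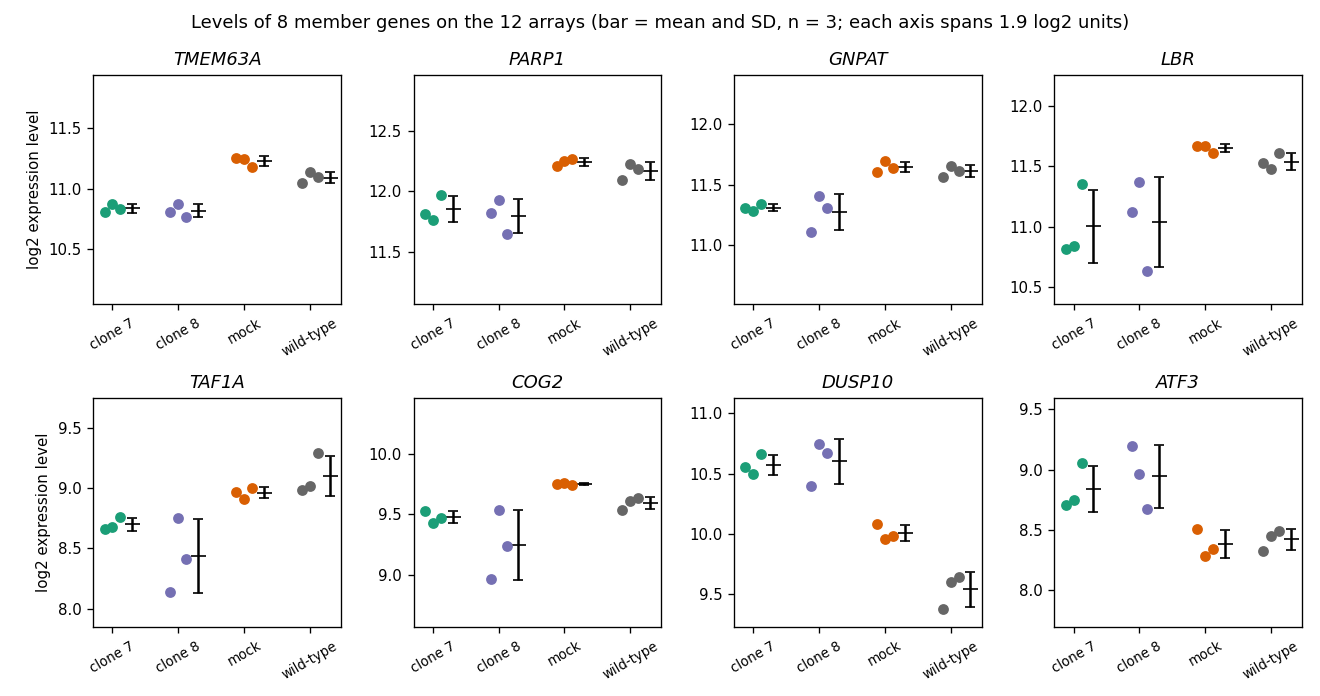
Log2 levels (vertical axis, 1.9 log2 units in each panel) of TMEM63A, PARP1, GNPAT, LBR, TAF1A, COG2, DUSP10 and ATF3 on the 12 arrays, by clone 7, clone 8, mock and wild-type (points; bars are mean and SD, n = 3). In the first 6 panels every clone array lies below every mock array, in the last 2 every clone array lies above, and DUSP10 also differs between mock and wild-type.

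Of the genes of the secretory pathway and membrane traffic (9 genes), which include the compartment that the EMC10 protein works in, 0 changed in clone 7 and 4 fell in clone 8 against mock (COG2, CHML, RAB3GAP2 and ACBD3), where 3.12% of all genes fell. All 9 differences were below 0 in each clone, with medians of -0.15 and -0.33, and in clone 8 the arrays of all 9 genes lay below those of mock (12.7% of all genes). COG2, a subunit of the Golgi tethering complex COG, had levels of 9.53, 9.43 and 9.47 in clone 7 and 8.96, 9.54 and 9.24 in clone 8, against 9.75, 9.76 and 9.74 in mock and 9.54, 9.61 and 9.63 in wild-type cells. All clone arrays lay below all mock arrays, and the highest of each clone was level with the lowest wild-type array. COG2 fell by 0.51 ± 0.11 in clone 8 against mock (adjusted p = 0.0225), and the difference was -0.27 ± 0.11 in clone 7 (adjusted p = 0.245). The call in clone 8 was lost without any 1 mock array (adjusted p up to 0.0965). LYST, which governs lysosome size, was -0.39 ± 0.12 in clone 8 against wild-type (adjusted p = 0.0695, and 0.0254 without clone 8 replicate 3). GALNT2, which starts O-glycosylation, was -0.07 ± 0.06 in mock against wild-type.

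The genes of RNA processing, ribosome making and translation (9 genes) differed from mock by a median of -0.24 in clone 7 and -0.28 in clone 8, with 9 of 9 below 0 in each. By limma 0 of 9 fell in clone 7 (1.32% of all genes). At an unadjusted p under 0.05, 6 of 9 were lower there, as were 26 of the 58 genes and 1329 of all 18417. In either direction 14.7% of all genes passed. In clone 8 2 fell (3.12% of all genes), RBM34 and SRP9. SRP9, a subunit of the signal recognition particle, and AIDA have 2 probe sets each. The 2 of SRP9 differed from mock by -0.23 and -0.24 in clone 7 and by -0.28 and -0.29 in clone 8. The brighter probe set of AIDA gave -0.11 and -0.28, and the dimmer one -0.01 and 0.01. The probe set kept for each has a number outside the run of its neighbours' numbers, so that it may read a near-identical copy elsewhere, and both genes are uncertain.

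Of the lipid, mitochondrial and other metabolic genes (5 genes), GNPAT fell in clone 7 and GNPAT and TOMM20 fell in clone 8 against mock. Of all genes 1.32% fell in clone 7 and 3.12% in clone 8, and the group medians were -0.17 and -0.23. GNPAT, which starts ether lipid synthesis in peroxisomes, differed from mock by -0.34 ± 0.07 in clone 7 and -0.37 ± 0.07 in clone 8, and from wild-type by -0.30 ± 0.07 and -0.34 ± 0.07, a fall in each. The calls against mock held in 1 of 6 and 3 of 6 fits with 1 array left out, and those against wild-type in 1 of 6 and 4 of 6. LYPLAL1, a lysophospholipase-like protein, was 0.24 ± 0.09 above mock in clone 7 (adjusted p = 0.202) and rose over wild-type there by 0.39 ± 0.09 (adjusted p = 0.0223), a call lost without clone 7 replicate 1 or 2 or wild-type replicate 1 or 2 (adjusted p up to 0.0962). Of the cytoskeleton, protease and remaining genes (8 genes), PSEN2 and FAM89A fell in each clone against mock (1.32% and 3.12% of all genes). The medians of the group were -0.14 and -0.15. With 1 array left out, the PSEN2 calls held in 2 of 6 fits in each clone, and those of FAM89A in 1 of 6 for clone 7 and 3 of 6 for clone 8. PSEN2, a catalytic subunit of gamma-secretase, had 9.45, 9.60 and 9.45 in clone 7 and 9.44, 9.59 and 9.55 in clone 8, against 9.87, 9.86 and 9.82 in mock and 9.57, 9.77 and 9.75 in wild-type cells. Its clone arrays lay below all mock arrays and overlapped the wild-type arrays.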

How the data were processed

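A172 cultures were profiled on GeneChip Human Gene 1.0 ST arrays. The deposited values of 33297 probe sets (0 missing) are on the log2 scale, and were summarized and normalized by the authors before deposit. The submitters' processing notes name Partek. How the summary and normalization were done is not stated in the sources read. Arrays carry no read depth, and precision is limited by their number (12). Detection calls were not used, so a dim level is known only by its size.

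Of the probe sets, 19460 had 1 symbol in the platform annotation, 1754 several and 12083 none listed. For each of 18417 genes the probe set with the highest mean was kept. Gene order came from a RefSeq table (GRCh38.p14), matched by Entrez number for 19429 probe sets, and promoters from a RefSeq table of the same assembly. A model over the 4 groups was fitted with limma 3.58.1 (lmFit, eBayes, R 4.3.3), tables were read with data.table (version 1.17.8), and p-values were adjusted by Benjamini-Hochberg within each contrast, over all genes. A call, on which a gene is said to have risen or fallen, needs an adjusted p under 0.05. Both limits add a fold of 1.5. Errors of differences are SEs, those of levels SDs. The code was tested on simulated data. Figures were drawn with matplotlib 3.10.9 in Python 3.11.15.

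The 58 genes and all lists were chosen with earlier results of these data known. Genes named with values are the 3 highest and 3 lowest of each contrast, those past both limits, the edge genes and their neighbours, DUSP10, EMC10 and the widest of each role group. The rest (among them GNPAT, ABCB10, AIDA, SRP9, NEK2 and EXO1) were named after their values were seen. Alternatives were quantile normalization, median centring, leaving out dim genes, limma with trend and robust settings, the groups of a contrast alone, the mean of probe sets, a replicate block, a fold limit of 1.3 and leaving out each array.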

Additional observations from a re-analysis of the deposited data

How the results depend on the processing

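The medians of the 58 genes kept their direction in both clones against mock, in both against wild-type and in mock against wild-type under each alternative tried, while the counts of calls did not. That of clone 8 against clone 7 (-0.03) was close to 0 and changed sign without clone 7 replicate 3, without clone 8 replicate 3 and after quantile normalization. With 3 arrays in a group few small differences can be called.

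Among counts of the 58 genes, those higher in mock against wild-type (1) were 3 after quantile normalization, 2 after median centring, 3 without dim genes, 2 with trend and robust settings and 8 with the groups of the contrast alone. Genes past both limits in clone 8 against mock (1) were 0 after median centring and 2 without dim genes, and genes lower in clone 7 against wild-type (5) were 1 after median centring. With the groups of the contrast alone, clone 7 against mock had 12 lower (7) and 1 past both limits (0), clone 8 against mock had 1 lower (17) and 1 higher (2), and clone 8 against wild-type had 0 lower (12), 1 higher (2) and 1 past both limits (2). With a fold limit of 1.3, both limits were passed by 4 genes in clone 7 against mock, 6 in clone 8 against mock, 1 in mock against wild-type and 2 in clone 7 against wild-type, where 1.95%, 2.61%, 1.51% and 3.02% of all genes did. The cause of these differences was not tested. Except at the fold limit of 1.3, the share of all genes called under an alternative was not counted.

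The deviations of same-numbered replicates had correlations of -0.83 to 0.45, 4 of 18 over 0.1. Those of differently numbered replicates ran from -0.55 to 0.73, 9 of 36 over 0.1. The highest were between clone 7 replicates 1 and 2 and clone 8 replicate 3 (0.73 and 0.69), and the lowest between replicates 3 of both clones. With 3 arrays in a group such correlations cannot decide whether the numbers pair the cultures. With the replicate block, genes lower were 3 in clone 7 and 9 in clone 8 against mock and 2 in clone 7 against wild-type, and genes higher were 1 in clone 8 against mock and 1 in clone 8 against wild-type.

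On leaving out 1 array, clone 7 against mock gave 1 to 15 genes lower, 0 to 1 higher and 0 to 1 past both limits. Clone 8 against mock gave 1 to 30 lower, 1 to 3 higher and 0 to 3 past both limits. Mock against wild-type gave 0 higher in each fit. Clone 7 against wild-type gave 0 to 7 lower, 1 to 2 higher and 1 to 2 past both limits, and clone 8 against wild-type gave 1 to 24, 1 to 3 and 1 to 3. The medians ran from -0.24 to -0.17 and from -0.30 to -0.19 for clones 7 and 8 against mock, from -0.096 to 0.017 for clone 8 against clone 7, from 0.083 to 0.13 for mock against wild-type, and from -0.13 to -0.083 and from -0.22 to -0.086 for clones 7 and 8 against wild-type.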
